A study of Mus musculus with 58 samples.

Results

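The diaphragm and the tibialis anterior of tumour-free mice were compared across all named genes, to describe how the muscle of breathing differs from a limb muscle at baseline. The arrays were chosen by their labels: 12 sham diaphragm arrays and 12 sham tibialis anterior arrays, 24 of the 58 arrays of the series. The remaining 34 arrays, 17 per muscle, came from mice that carried pieces of human pancreatic ductal adenocarcinoma on the pancreas. All mice were adult females of the immunodeficient NSG strain, and the sham animals had the operation with no tumour placed. They belonged to 4 cohorts, and each cohort gave 3 sham arrays per muscle. The labels do not say that each array came from a separate animal, nor that equally numbered arrays of both muscles came from 1 mouse, so the p-values below measure the spread between these samples.

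Skeletal muscle is built of slow fibres, which contract for long periods on oxidative metabolism, and fast fibres, which contract quickly and draw more on glycolysis. Each fibre type carries its own isoforms of myosin, troponin and the calcium pumps. The mouse tibialis anterior, which lifts the foot, is almost purely fast, whereas the diaphragm works without rest and mixes oxidative fast fibres with slow ones. The diaphragm also differs in origin and surroundings: its muscle cells migrate from cervical somites, it is covered by mesothelium on both faces, and it lies against the liver.

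Signals are RMA values on the log2 scale, and a difference is the diaphragm minus the tibialis anterior, taken within each cohort and averaged over the 4. A gene passed with an adjusted p under 0.05 (limma, Benjamini-Hochberg over all 23185 named genes). Array medians lay between 3.70 and 3.86 and array maxima near 12. Over all probe sets the median signal was 3.78, and a gene whose mean in 1 muscle fell short of it is called dim there, which makes its difference a lower bound. Near the array maxima a difference can be hidden. Probe sets differ in brightness, so levels are compared between muscles for 1 gene and not between genes.

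The sham diaphragm arrays fell apart in their liver transcripts. Alb, which encodes serum albumin of hepatocytes, had log2 signals of 5.46, 12.23 and 12.31 in the 3 diaphragm arrays of cohort 1, of 7.37, 7.0 and 12.40 in cohort 2, of 12.39, 12.17 and 7.53 in cohort 3 and of 5.45, 7.71 and 10.75 in cohort 4. Thus 6 of 12 arrays lay above 10, the lowest of them at 10.75 and the highest of the others at 7.71. Without those 6, cohort 1 keeps only diaphragm replicate 1 and cohort 3 only diaphragm replicate 3, and the cohorts still weigh equally. Whether calls lost in that setting stem from the smaller number of arrays was not tested. In the sham tibialis anterior Alb ran from 3.69 over a median of 4.91 to 9.30, and no array lay above 10. Across the 29 diaphragm arrays of the series, sham and tumour-bearing, 199 genes correlated with log2 Alb at r of 0.8 or more, among them 28 of the 34 measured genes of the hepatocyte list. These 199 genes are named here as liver RNA. Outside the hepatocyte list, 1 of them was a list member: Slc38a4, an amino acid transporter that did not pass (0.20), is counted among the measured genes of the channel list.

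**Figure D1:**
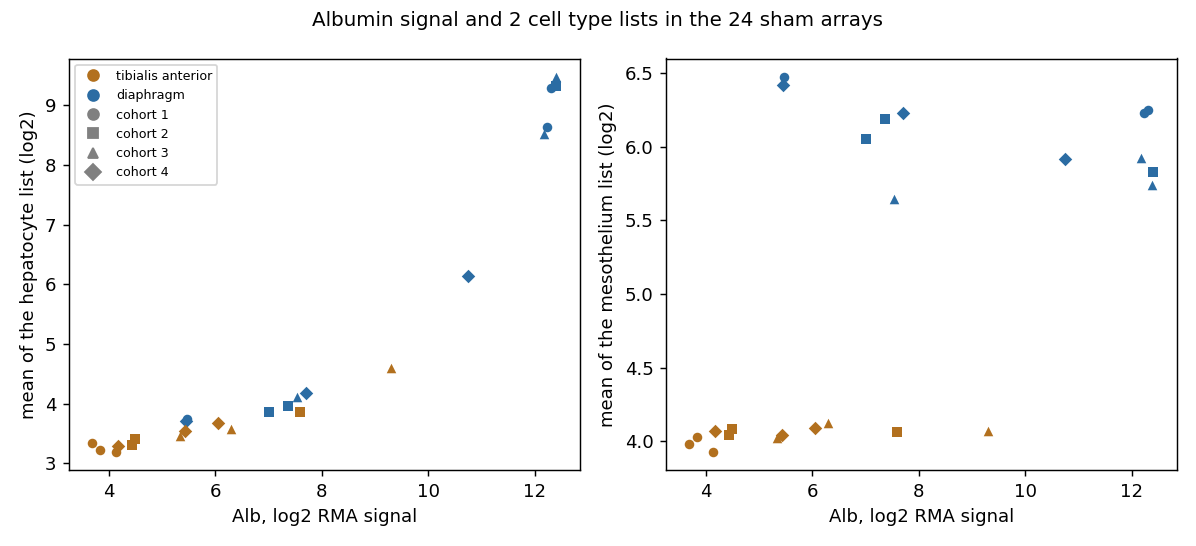
Each point is 1 of the 24 sham arrays, with log2 Alb on the x axis and the mean log2 signal of the hepatocyte list (left) or the mesothelium list (right) on the y axis. The hepatocyte mean runs from 3.71 to 9.47 in the diaphragm along with Alb, while the mesothelium mean stays between 5.64 and 6.47 there and between 3.93 and 4.12 in the tibialis anterior.

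Of the 34 hepatocyte genes, 31 were higher in the diaphragm, with a median difference of 2.83, against 3 with a median of 0.15 when the 6 arrays of high Alb were left out. Alb itself differed by 4.00 (SE 0.88, adjusted p = 0.00031) over all arrays and by 1.29 without those 6. The 6 arrays were left out for their Alb signal. Smaller differences in Alb and in genes that track it were therefore fixed in advance and are no test. Of the 199 genes, 176 passed as higher and 23 did not pass. Just inside the limit of r lay Nipsnap1 (r 0.801, difference 1.24), Fmo5 (0.802, 0.75) and Kynu (0.802, 1.76), and just outside it Pklr (0.80, 1.48), Adh4 (0.80, 1.34) and Serpina11 (0.799, 1.02). Farther outside lay Pck1 at 0.79, Cyp2e1 at 0.77, Mup3 at 0.76 and Cdo1 at 0.73. Cyp2e1, a cytochrome P450 of the liver, differed by 4.62 over all arrays and by 3.68 without the 6, with diaphragm signals of 6.29 to 11.02 and tibialis anterior signals of 3.47 to 5.13. Cdo1, a cysteine dioxygenase, and F5, coagulation factor V, differed by 4.03 and 3.75, and by 3.31 and 2.86 without the 6 arrays. These 3 genes correlated with Alb at r of 0.77, 0.73 and 0.61, and the part of liver RNA in their remaining difference was not tested. Trf, which encodes transferrin and tracked Alb at 0.89, still differed by 3.03 without the 6 arrays (adjusted p = 1.27e-05).

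Of the 23185 genes, 3520 (15.2%) were higher and 5690 (24.5%) lower in the diaphragm, and the median difference of all genes was -0.085. At a difference of at least 1.5-fold the balance turned, with 1523 genes (6.57%) higher and 629 (2.71%) lower. At least 4-fold differences were found for 191 genes higher in the diaphragm, 84 of them liver RNA, and for 24 lower. The 84 are only those at r of 0.8 or more with log2 Alb. Cyp2e1 (4.62), Mup3 (3.64) and Pck1 (3.35) lay outside that limit, and the part of liver RNA in the other genes was not tested. The 12 arrays of each muscle did not overlap at all for 607 genes above (2.62%) and 503 below (2.17%) in the diaphragm. Without the 6 arrays of high Alb, 2492 genes passed as higher and 2595 as lower. Over all arrays 9210 genes passed in either direction (39.7%), and 38.2% of them were higher. Of the genes that passed without those 6 arrays 49.0% were higher, and of those that passed with each array centred on its own median 33.5%. The list counts over all arrays below are to be read against the 15.2% higher and 24.5% lower of all genes. List counts without the arrays of high Alb are not to be read against these shares. Fewer of all genes passed in that setting, as given above.

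**Figure D2:**
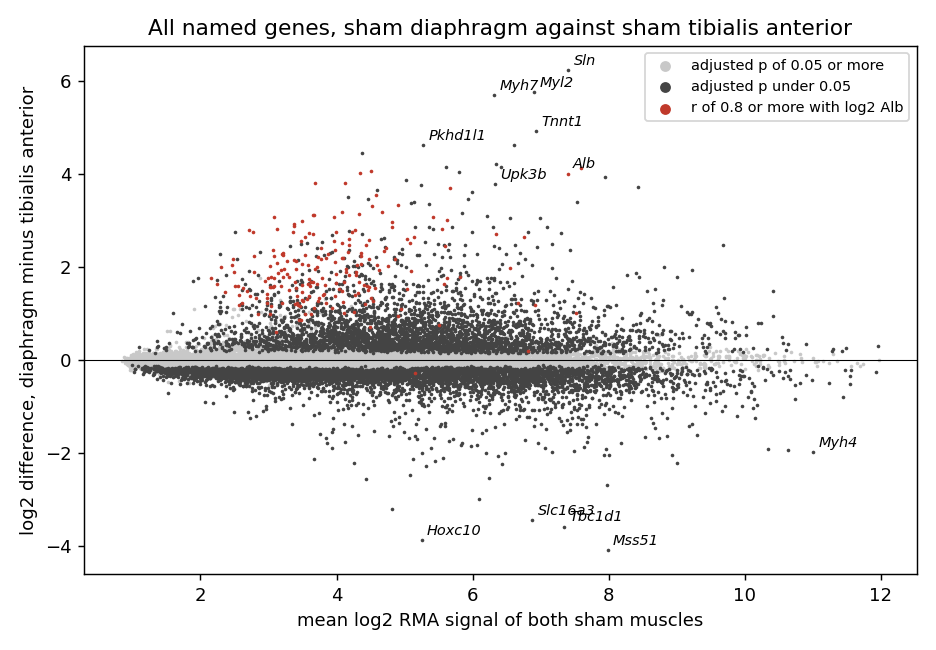
Each point is 1 of the 23185 named genes, with the mean log2 signal of both sham muscles on the x axis and the log2 difference (diaphragm minus tibialis anterior) on the y axis. Red points are the 199 genes named as liver RNA, and the slow muscle genes Sln, Myl2 and Myh7 lie above them, at 5.69 to 6.23.

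The largest differences belonged to the slow contractile apparatus. Sln encodes sarcolipin, a small inhibitor of the calcium pump. Its log2 signal ran from 10.27 over a median of 10.44 to 10.97 in the diaphragm and from 3.28 over 4.17 to 5.59 in the tibialis anterior. No arrays overlapped, and the difference of 6.23 (SE 0.23, adjusted p = 4.80e-27) is 75.1-fold. Myl2, the slow regulatory light chain, ran from 9.21 over 9.77 to 10.39 against 3.27 over 3.92 to 5.54, a difference of 5.76 (SE 0.18, adjusted p = 3.11e-30). Myh7, the slow myosin heavy chain, ran from 8.55 over 9.17 to 9.95 against 2.42 over 3.48 to 4.58. Its difference of 5.69 (SE 0.15, adjusted p = 2.29e-32) is a lower bound, since the limb signals lay near the floor. All 3 genes separated the 24 arrays by muscle without exception.

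The slow thin filament moved along with the thick one. Tnnt1, Tnni1 and Tnnc1 encode the slow troponin subunits that bind tropomyosin, inhibit the filament and sense calcium. They differed by 4.91 (SE 0.15), 4.2 (SE 0.11) and 4.15 (SE 0.11), and none of their arrays overlapped. Tpm3, the slow tropomyosin, differed by 3.92 (SE 0.11), Myl3, a slow essential light chain, by 3.60 and Myom3, an M-band protein, by 2.42. Atp2a2 encodes SERCA2, the calcium pump of slow fibres. It ran from 10.01 over 10.32 to 10.63 in the diaphragm and from 6.07 over 6.55 to 7.09 in the limb, with a difference of 3.71 (SE 0.09) and the smallest adjusted p of the genes named here (8.84e-34). The slow calsequestrin Casq2 and the Z-disc gene Myoz2 were higher by 3.05 and 2.00, and phospholamban (Pln) by 0.66. In all, 16 of the 19 measured slow sarcomere genes were higher and 0 lower, with a median of 3.05 beside -0.085 for all genes. Csrp3 (0.02), Mybpc1 (-0.06) and Ankrd2 (-0.34) did not pass. The counts were the same, 16 and 0, without the 6 arrays of high Alb.

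The fast apparatus differed less, and only downward. Of 20 fast sarcomere genes, 17 were lower in the diaphragm and 0 higher, with a median of -0.74, and 14 were lower without the arrays of high Alb. Myh4, the myosin of the fastest glycolytic fibres, ran from 6.95 over 10.20 to 11.03 in the diaphragm and from 11.82 over 11.98 to 12.16 in the limb. The arrays did not overlap, and the difference of -1.98 (SE 0.33, adjusted p = 4.86e-06) is drawn from limb signals at the top of the scale. The lowest diaphragm value, 6.95 in cohort 3, stood far below the next, 8.85, and without that array the difference was -1.71. The same array was the lowest of the diaphragm for Pvalb, Actn3 and Mylk4. It is also the only diaphragm array of cohort 3 that stays when the arrays of high Alb are left out. Mylk4 and Mylk2, kinases of the myosin light chain family, were lower, at -2.22 (SE 0.23) and -2.05 (SE 0.10). Actn3, the fast alpha-actinin of the Z-disc, and Pvalb, a calcium buffer of fast fibres, were lower, at -1.94 (SE 0.17) and -1.91 (SE 0.17).

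The common fast isoforms stayed high in both muscles. Myh1, the myosin of intermediate fast fibres, had medians of 11.38 in both muscles and a difference of -0.02 (adjusted p = 0.83, SE 0.07). Tnnc2 (-0.08) and Tnnt3 (-0.14), fast troponins, did not pass either, and Tnni2 (-0.26) and the fast calcium pump Atp2a1 (-0.25) passed with small differences. Tnni2 did not pass with cohort as the replicate (adjusted p = 0.060), with log2 Alb as a covariate (-0.11, adjusted p = 0.41), without cohort 1 (-0.16, adjusted p = 0.23) or without the arrays of high Alb (-0.18, adjusted p = 0.25), and Atp2a1 did not pass with the covariate (-0.13, adjusted p = 0.14). Tnnt3 passed on the 24 sham arrays alone (adjusted p = 0.035) and without cohort 3 (-0.19, adjusted p = 0.025). These signals lay between 9.86 and 12.14, close to the array maxima. Myh2, the myosin of oxidative fast fibres, was higher in the diaphragm by 0.95 (SE 0.16, adjusted p = 4.33e-06), with ranges of 10.59 to 11.04 and 9.16 to 10.76 that overlapped. Of the 10 myosin heavy chains measured, 3 were higher and 5 lower (3 and 3 without the arrays of high Alb). The embryonic chain Myh3 was lower, at -1.10, with signals that were dim in both muscles.

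**Figure D3:**
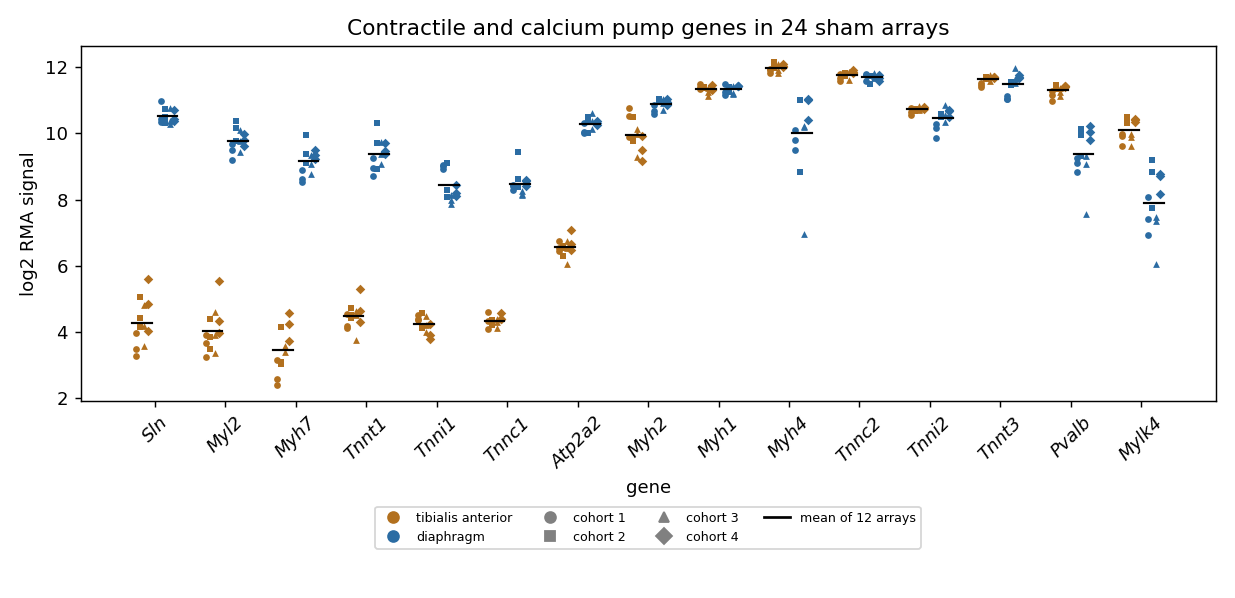
Log2 RMA signals of 15 genes in the 24 sham arrays, 12 of the tibialis anterior and 12 of the diaphragm, with marker shapes for the 4 cohorts and a bar at each mean. Slow genes such as Sln and Myh7 are separated by several log2 units in every cohort, Myh1 lies at the same height in both muscles, and Myh4 has 1 diaphragm array at 6.95.

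The promoters of 5 of these genes are shown because they stand at the ends of the comparison: 3 slow genes, the fast Myh4, and Mss51, the gene with the largest difference below 0 under the naming rule. Each sequence holds the 250 bases before the first listed start of the gene, read 5′ to 3′ on the strand of the gene, from RefSeq on build GRCm38.p6. Capitals mark 2 motifs found on either strand: the E-box CANNTG, which myogenic basic helix-loop-helix factors recognise, and the MCAT element CATTCC of TEAD factors. The matches of both motifs did not overlap in the 5 windows.
Myh7, chr14:54994627-54994876, minus strand: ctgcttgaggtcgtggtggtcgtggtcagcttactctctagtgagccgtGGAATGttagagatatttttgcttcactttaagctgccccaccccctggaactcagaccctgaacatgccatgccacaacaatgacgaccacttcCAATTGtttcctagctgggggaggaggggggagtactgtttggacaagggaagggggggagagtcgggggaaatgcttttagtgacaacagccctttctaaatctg
Tnnc1, chr14:31208062-31208311, plus strand: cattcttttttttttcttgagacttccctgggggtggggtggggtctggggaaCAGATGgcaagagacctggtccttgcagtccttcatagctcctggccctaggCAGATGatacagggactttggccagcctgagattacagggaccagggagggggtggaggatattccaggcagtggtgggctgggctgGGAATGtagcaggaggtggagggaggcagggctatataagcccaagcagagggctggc
Tnni1, chr1:135799171-135799420, plus strand: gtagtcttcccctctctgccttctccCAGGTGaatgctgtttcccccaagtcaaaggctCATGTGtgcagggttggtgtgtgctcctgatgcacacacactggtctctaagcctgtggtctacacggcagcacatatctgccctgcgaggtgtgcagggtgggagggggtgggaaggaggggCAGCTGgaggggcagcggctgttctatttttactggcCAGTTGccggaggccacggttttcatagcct
Myh4, chr11:67237562-67237811, plus strand: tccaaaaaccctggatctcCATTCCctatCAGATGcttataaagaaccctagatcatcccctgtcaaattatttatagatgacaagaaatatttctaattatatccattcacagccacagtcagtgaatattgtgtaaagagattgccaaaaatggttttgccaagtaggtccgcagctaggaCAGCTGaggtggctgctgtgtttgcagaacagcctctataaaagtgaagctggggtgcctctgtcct
Mss51, chr14:20496902-20497151, minus strand: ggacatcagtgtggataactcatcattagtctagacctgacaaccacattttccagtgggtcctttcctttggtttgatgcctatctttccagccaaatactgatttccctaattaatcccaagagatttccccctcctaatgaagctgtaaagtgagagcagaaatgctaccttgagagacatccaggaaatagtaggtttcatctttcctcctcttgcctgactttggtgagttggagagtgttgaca

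The window of Tnni1 held 4 E-boxes, those of Tnnc1 and Myh4 held 2, that of Myh7 held 1 and that of Mss51 held 0. An MCAT match lay in the windows of Myh7, Tnnc1 and Myh4. Among the 17452 genes with both a probe set and a promoter entry, 62.8% held an E-box in this window and 11.7% an MCAT element. An E-box was found for 17 of the 17 slow sarcomere genes with an entry and for 10 of the 12 fast ones. The MCAT element was found for 3 of those 17 and for 5 of those 12. TATAAA, searched in the same way, was found for 3 of 17 slow and 3 of 12 fast genes beside 11.8% of all, and Myh4 held it 31 bases before the start. The MEF2 motif was found for 3 slow and 4 fast genes beside 2.56% of all. A match describes letters in a window and not a bound factor.

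Regulators of fibre type were mostly lower in the diaphragm, with 18 of 31 lower, 4 higher and a median of -0.28 (14 lower and 3 higher without the arrays of high Alb). Sox6, a repressor of slow genes in fast fibres, was lower, at -1.01 (SE 0.07, adjusted p = 1.21e-15), from 7.70 to 8.28 in the limb and from 6.44 to 7.26 in the diaphragm with no overlap. Eya4, a coactivator of fast fibre genes, was lower, at -1.82 (SE 0.12), and Six2, Mafa and Maf by -0.97, -0.94 and -0.92. The orphan nuclear receptors Nr4a1 and Nr4a3 were lower, at -1.43 and -1.48, with overlapping arrays. Nr4a3 did not pass without the arrays of high Alb (adjusted p = 0.053) or with cohort as the replicate (adjusted p = 0.085), and without cohort 3 its difference was -0.71 (adjusted p = 0.46). Leaving out any 1 of 10 of the 24 arrays, of either muscle, also ended its call, with adjusted p-values of 0.051 to 0.085. Prox1, which acts in slow fibres and in lymphatic vessels, was higher by 2.70 (SE 0.23, adjusted p = 2.48e-13). The difference was 2.27 without the arrays of high Alb and 2.21 with log2 Alb as a covariate. The lymphatic genes Lyve1 and Flt4 were higher too, by 2.03 and 1.46, and Lyve1 is also a member of the macrophage list. The parts of lymphatic vessels and of liver RNA in the Prox1 difference were not tested. The coactivator Ppargc1a was higher by 0.64 (adjusted p = 0.017) with overlapping arrays, and did not pass without the arrays of high Alb (0.46, adjusted p = 0.22), nor without tibialis anterior cohort 3 replicate 3 (adjusted p = 0.0501) or diaphragm cohort 1 replicate 2 (adjusted p = 0.054).

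Calcium release and uptake genes trigger and end contraction. Of 29, 22 were lower in the diaphragm and 3 higher, with a median of -0.64. Cacng1, a subunit of the calcium channel of the fibre membrane, was lower, at -1.87 (SE 0.13). Jph2 and Jph1, which tether the membrane to the calcium store, were lower, at -1.38 and -0.93, and the release channel Ryr1 by -0.42. The kinases Camk2a and Camk2b and the calcineurin subunit Ppp3ca were lower, at -1.26, -1.15 and -1.26. Ryr3, another release channel, was higher by 0.65 at signals that were dim in both muscles. None of these named genes tracked Alb.

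Channels and transporters of the fibre membrane were lower for 14 of 29 genes and higher for 2. Atp1b2, a beta subunit of the sodium pump, ran from 5.39 over 6.67 to 7.43 in the diaphragm and from 9.06 over 9.32 to 9.54 in the limb. The arrays did not overlap, and the difference was -2.68 (SE 0.13, adjusted p = 4.80e-22). The potassium channels Kcnc4 and Kcnc1 were lower, at -2.53 (SE 0.11) and -2.13 (SE 0.13), the chloride channel Clcn1 by -1.12 and the water channel Aqp4 by -1.0. At the neuromuscular junction the members split, with 11 of 23 higher and 7 lower. Musk, the receptor that organises the synapse, was higher by 1.15 and Colq, the collagen tail of acetylcholinesterase, by 0.96, whereas Ache, the enzyme itself, was lower, at -0.95 and the adult receptor subunit Chrne by -0.83.

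Fatty acid and glycolytic genes differed in opposite directions. Of 36 genes of fatty acid uptake and oxidation, 32 were higher in the diaphragm and 2 lower, with a median of 0.66 (29 and 2 without the arrays of high Alb). Lpl, the lipase that frees fatty acids from lipoproteins, ran from 10.91 over 11.17 to 11.43 against 9.32 over 9.62 to 10.15, a difference of 1.49 (SE 0.08, adjusted p = 4.47e-20). Oxidation enzymes were higher by smaller amounts that recurred along the pathway: Acaa2 by 1.21, Acadl by 0.88, Hadh by 0.83, Acadm by 0.79 and Hadha by 0.78. Plin5, a lipid droplet protein, was higher by 1.31, and Ppara, the receptor that governs these enzymes, by 1.73. Acsl6, a long-chain acyl-CoA synthetase, and Ucp3, a mitochondrial carrier, were the 2 that were lower, by -1.42 and -1.17.

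Glycolysis and glycogen genes were lower for 20 of 34 and higher for 7, with a median of -0.51. Slc16a3 encodes MCT4, the lactate exporter of glycolytic fibres. It ran from 4.46 over 5.09 to 5.94 in the diaphragm and from 8.29 over 8.49 to 9.22 in the limb, and the difference was -3.44 (SE 0.14, adjusted p = 1.98e-25). The 3 subunits of phosphorylase kinase that were listed, Phkb, Phkg1 and Phka1, were lower, at -1.67, -1.65 and -1.64, each with no overlap between arrays. Pfkfb3, a regulator of phosphofructokinase, was lower, at -1.99, Gpd1 by -1.46 and Ldha, the muscle chain of lactate dehydrogenase, by -0.99. Ldhb, the heart chain of that enzyme, went the other way by 1.97 (SE 0.11), and Slc16a7, the transporter MCT2, was higher by 3.86 (SE 0.26), or 3.76 without the arrays of high Alb.

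The respiratory chain itself differed little over all arrays. Of 34 complex I genes, 1 was higher and 3 lower with a median of 0.0019, and of 36 genes of complexes II to V, 5 were higher and 0 lower with a median of 0.065. Without the arrays of high Alb, 4 complex I genes and 8 genes of complexes II to V were higher. In the citric acid cycle list, 7 of 29 genes were higher and 5 lower (6 and 1 without the arrays of high Alb), yet Idh2, the mitochondrial NADP-dependent isocitrate dehydrogenase, stood apart. It ran from 10.64 over 10.97 to 11.21 in the diaphragm and from 8.23 over 8.45 to 8.66 in the limb, and differed by 2.48 (SE 0.10, adjusted p = 2.03e-25). Citrate synthase (Cs) differed by -0.0037 and did not pass, and myoglobin (Mb) was higher by 0.23.

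Among the genes most tied to the tibialis anterior, Mss51 led. It encodes a zinc-finger protein of fast glycolytic muscle and ran from 4.58 over 5.68 to 8.10 in the diaphragm and from 9.64 over 10.06 to 10.36 in the limb. The difference was -4.09 (SE 0.23, adjusted p = 5.46e-20, 17.0-fold), and diaphragm arrays of cohorts 2 and 4 reached values above 7 and the limb arrays lay above all of them. Tbc1d1, a regulator of glucose transporter traffic, ran from 4.93 over 5.43 to 6.63 against 8.84 over 9.07 to 9.68 and was lower, at -3.58 (SE 0.14, adjusted p = 7.27e-26). Ostn, which encodes the secreted peptide musclin, was lower, at -2.98 (SE 0.23). Mettl11b, a methyltransferase gene, was lower, at -3.21 (SE 0.18), a lower bound because diaphragm signals lay near the floor. Lrp2bp, Padi2, Smarca1 and Rhbdl1 completed this end of the range, at -2.28, -2.23, -2.22 and -2.17.

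Hox genes are transcription factors whose paralog number follows the order of expression from head to tail. Of 38 measured, 8 were higher and 17 lower in the diaphragm. Among paralog groups 1 to 6, 8 of 17 genes were higher and 3 lower with a median of -0.00081. Among groups 7 to 13, 0 of 21 were higher and 14 lower with a median of -0.33. Hoxc10, a gene of the lumbar region and the hindlimb, ran from 2.30 over 3.29 to 4.19 in the diaphragm and from 6.93 over 7.13 to 7.46 in the limb. Its difference of -3.88 (SE 0.12, adjusted p = 2.71e-30) is a lower bound. Hoxc9 and Hoxa9 were lower, at -1.78 and -1.37, Hoxc11 and Hoxa13 by -1.21 and -1.18. In the other direction Hoxa5 was higher by 1.53 (SE 0.11, adjusted p = 2.42e-15), with 4.73 to 5.75 against 2.99 to 4.17, and Hoxc6 by 1.2 (SE 0.17). For 21 of the 38 genes both muscles were dim. Without the arrays of high Alb, 5 Hox genes were higher and 12 lower.

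**Figure D4:**
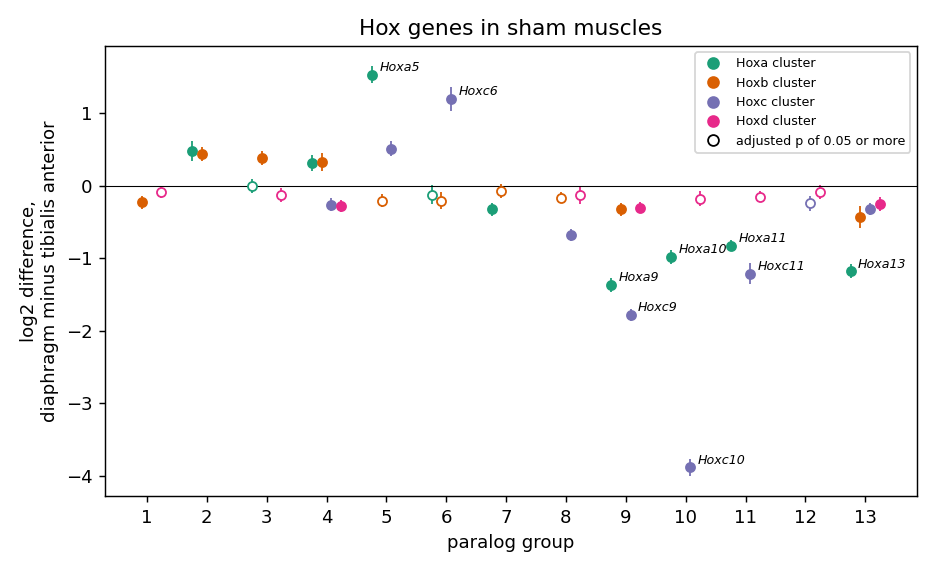
Log2 difference (diaphragm minus tibialis anterior, with limma's SE) of the 38 measured Hox genes by paralog group and cluster, open circles marking genes that did not pass. Genes higher in the diaphragm lie at groups 2 to 6, led by Hoxa5 at 1.53, and groups 7 to 13 hold none, with Hoxc10 at -3.88.

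Of 44 other patterning factors, 15 were higher and 16 lower, beside 15.2% and 24.5% of all genes; without the arrays of high Alb 16 were higher and 7 lower. Meis2, a partner of Hox proteins, ran from 6.40 over 6.69 to 7.26 against 2.85 over 3.48 to 3.8 and differed by 3.36 (SE 0.10, adjusted p = 9.53e-31). Gata6, Shox2 and Tbx3 were higher by 2.22, 2.02 and 1.58. Pax3, which marks migrating muscle precursors, was higher by 1.69 (SE 0.11), with 5.02 to 5.80 against 3.31 to 4.17. Sim1 and Sim2, related helix-loop-helix factors, were lower, at -2.56 (SE 0.10) and -2.46 (SE 0.13), and the migration factor Lbx1 by -0.97. The limb identity factors Tbx4 (0.01) and Tbx5 (0.15) did not pass.

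Muscle stem cell and growth genes gave smaller shifts. Pax7, the satellite cell factor, did not pass (-0.15), while the myogenic factors Myf6 and Myod1 were lower, at -0.81 and -0.68 and Myf5 higher by 0.40. In the growth factor list 14 of 34 genes were higher and 9 lower (12 and 6 without the arrays of high Alb). Igf1, insulin-like growth factor 1, was higher by 1.76 (SE 0.22), or 1.33 without the arrays of high Alb, and correlated with Alb at r of 0.66. The binding protein genes Igfbp3 and Igfbp4 were higher by 1.70 and 1.69 with no overlap. Mstn, the muscle growth inhibitor myostatin, was lower, at -1.07, and its receptor subunits Acvr1b and Acvr2b by -1.50 and -0.47. Among receptors, Rxrg, a retinoid X receptor, was lower, at -1.37 and Irs1, an adaptor of the insulin receptor, by -0.96.

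Proteasome, ubiquitin ligase, Z-disc and clock genes were tested as separate lists. Of 29 proteasome subunits, 22 were lower in the diaphragm and 0 higher, with a median of -0.34, and 16 were lower without the arrays of high Alb. Psmd6 had the largest of these differences, -0.69 (SE 0.06, adjusted p = 1.99e-12), with 6.94 to 7.30 against 7.71 to 7.95. Among 28 ubiquitin ligase and atrophy genes, 10 were lower and 7 higher (7 and 6 without the arrays of high Alb). The substrate receptors Asb4, Asb2 and Asb5 were lower, at -1.48, -1.03 and -0.85 and the ligase Trim63 (MuRF1) by -0.53, whereas Fbxo32 (atrogin-1) did not pass (-0.21) and the metallothionein genes Mt2 and Mt1 were higher by 1.23 and 1.15. Of 37 Z-disc, titin and costamere genes, 22 were lower and 4 higher (15 and 3 without the arrays of high Alb). Pdlim3 and Pdlim7 were lower, at -1.04 and -0.88, and Csrp2, a LIM domain protein of smooth muscle and developing tissue, was higher by 2.04 (SE 0.09). Of 20 clock genes 10 were lower and 0 higher, among them Bhlhe41 at -0.72 and Rora at -0.65. Bhlhe41 did not pass on the 24 sham arrays alone (adjusted p = 0.058), with log2 Alb as a covariate (-0.59, adjusted p = 0.14) or without cohort 1 (-0.69, adjusted p = 0.066).

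The remaining lists held genes that differed in both directions, and the lower counts of the receptor, immediate-early and ribosomal lists lay near the 24.5% of all genes. Of 15 embryonic and cardiac isoforms 2 were higher and 8 lower, and 10 were dim in both muscles; without the arrays of high Alb 1 was higher and 3 lower. Ankrd1, a stress-responsive cardiac repeat protein, led these at -1.89. Of 26 hormone and neurotransmitter receptor genes 7 were higher and 6 lower (4 and 2 without the arrays of high Alb), and of 26 immediate-early genes 7 were higher and 6 lower (4 and 2), with Zfp36, an RNA-destabilising protein, at 1.43. Of 32 genes of mitochondrial biogenesis and oxygen supply 7 were higher and 4 lower (6 and 2). Of 24 satellite cell and myogenic genes 6 were higher and 6 lower (4 and 4). Of 29 ribosomal protein genes 2 were higher and 7 lower (2 and 1), and Rpl6, at -1.04, did not pass without the arrays of high Alb (-0.67, adjusted p = 0.064), and of 25 cell cycle genes 7 were higher and 3 lower (4 and 1). Of 19 basement membrane genes 8 were higher and 3 lower (5 and 2), with Nid2 (nidogen 2) at 1.02.

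Markers of cells other than muscle fibres were tested as lists. Of 21 mesothelium genes, 20 were higher in the diaphragm and 0 lower, with a median of 1.90 (18 and 0 without the arrays of high Alb). The mean of the list lay between 5.64 and 6.47 in the diaphragm and between 3.93 and 4.12 in the limb. Upk3b, a uroplakin of mesothelial membranes, ran from 7.42 over 8.24 to 9.05 against 4.01 over 4.47 to 4.78, a difference of 3.77 (SE 0.16). Gpm6a differed by 4.15 (SE 0.13), Lrrn4 by 3.50, Upk1b by 3.40, mesothelin (Msln) by 2.03 and the mesothelial factor Wt1 by 1.64. In such bulk tissue more cells of a type and more RNA per cell cannot be told apart. Pkhd1l1, which encodes a large fibrocystin-like protein and is in none of the lists, differed by 4.62 (SE 0.14), with 6.90 to 8.19 against 2.67 to 3.15. Tecrl, a gene best known from heart muscle, differed by 4.44 (SE 0.18).

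Adipocyte genes formed a further block, with 16 of 19 higher and 0 lower and a median of 1.67 (16 and 0 without the arrays of high Alb). Adipoq, the hormone adiponectin, ran from 4.39 over 5.36 to 7.03 in the diaphragm and from 1.92 over 2.78 to 3.58 in the limb, and its difference of 2.77 (SE 0.28, adjusted p = 4.04e-11) is a lower bound. Retn and Cidec, which encode resistin and a lipid droplet protein, differed by 2.87 and 2.86, and the lipogenic enzymes Scd1 and Fasn by 3.40 and 3.05. With log2 Alb as a covariate, Retn and Cidec differed by 3.03 and 3.17, and Scd1 and Fasn by 2.68 and 2.77. The part of liver RNA in the Scd1 and Fasn differences was not tested. The list mean lay between 5.71 and 6.74 against 4.35 and 4.90. Ucp1, the marker of brown fat, did not pass and was dim in both muscles. Lpl, Pparg and other lipid genes of the fibre are expressed by adipocytes too, and the part of fat cells in the fatty acid differences was not tested.

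Connective tissue genes were higher for 18 of 38 matrix members and lower for 4, with a median of 0.37. Col14a1, a collagen that binds to fibrils, was higher by 2.03 (SE 0.13), fibronectin (Fn1) by 1.78 and thrombospondin 1 (Thbs1) by 1.55, whereas Col1a1 (-0.17) and Col1a2 (-0.05), the chains of type I collagen, did not pass. Of 19 fibroblast and progenitor genes, 11 were higher and 2 lower. Dpp4 and Osr1 were higher by 2.29 and 2.27, and Cxcl14, a chemokine, was lower, at -1.37 (SE 0.19), with 6.08 to 7.22 against 7.80 to 8.38. In the tendon list 3 of 20 genes were higher and 6 lower (2 and 2 without the arrays of high Alb). Prg4, the joint and surface lubricant, was higher by 2.49 (SE 0.25) over ranges of 6.80 to 9.31 and 5.27 to 7.42 that overlapped, and tenomodulin (Tnmd) was lower, at -0.75.

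Immune transcripts were higher for myeloid cells. Of 27 macrophage and monocyte genes, 19 were higher in the diaphragm and 0 lower, with a median of 0.59 (20 and 0 without the arrays of high Alb), and the list mean lay between 4.75 and 5.61 against 4.18 and 4.74. Itgam, the integrin CD11b, differed by 2.82 (SE 0.28), with 5.09 to 7.92 against 3.15 to 4.35, Adgre1, a macrophage surface receptor, by 1.86 and Timd4, a receptor of resident macrophages, by 1.41. Of 18 interferon response genes, 15 were higher and 0 lower (10 and 0 without the arrays of high Alb), led by Oasl2 at 1.62 (SE 0.12) and Oas2 at 1.15. NSG mice lack mature lymphocytes, and of the 18 lymphocyte genes 0 were higher and 6 lower, with 14 of the 18 dim in both muscles. Ighm, the immunoglobulin mu gene, had the largest of these differences. It ran from 4.64 over 6.39 to 7.45 in the diaphragm and from 7.62 over 8.60 to 9.22 in the limb, a difference of -1.95 (SE 0.28, adjusted p = 1.75e-07). Endothelial genes were higher for 8 of 28 and lower for 2, and Pecam1 differed by 0.20. Of 18 pericyte and smooth muscle genes 2 were higher and 3 lower (0 and 2 without the arrays of high Alb), of 16 mast cell genes 4 and 1, of 18 Schwann cell and nerve genes 4 and 4, and of 7 erythroid genes 3 and 2. The haemoglobin gene Hbb-b1 was higher by 2.05. Of 16 pancreatic acinar genes 0 were higher and 7 lower (0 and 3 without the arrays of high Alb), 13 of them dim in both muscles.

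**Figure D5:**
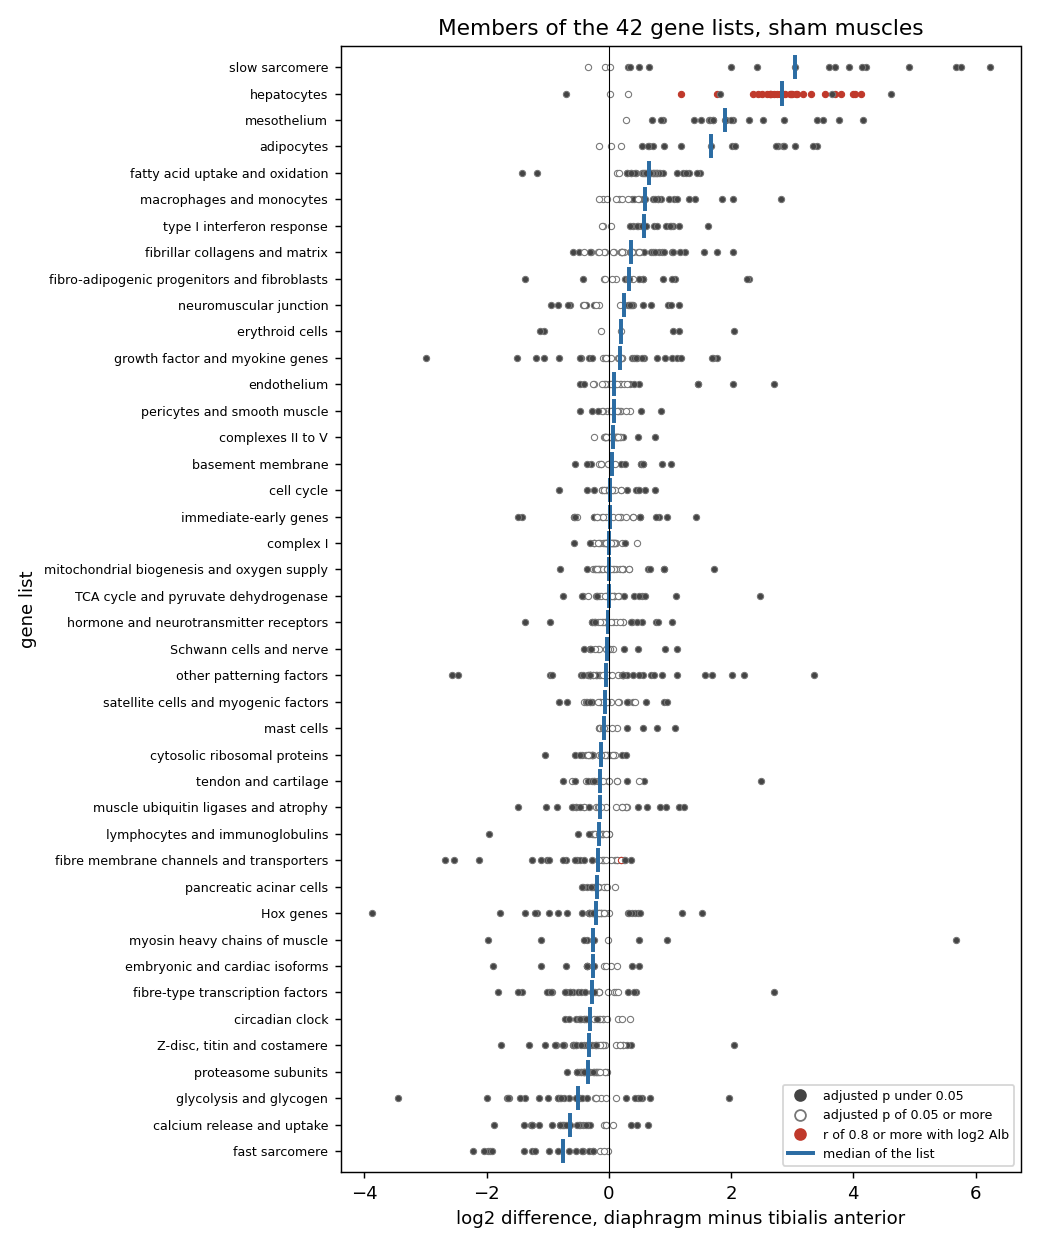
Log2 differences (diaphragm minus tibialis anterior) of every measured member of the 42 gene lists, filled where the gene passed and red where it tracked Alb, with a bar at each median. The slow sarcomere, hepatocyte, mesothelium and adipocyte lists lie farthest to the right, with medians of 3.05, 2.83, 1.90 and 1.67, and the fast sarcomere list farthest to the left at -0.74.

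Variation of the muscle difference between cohorts was tested gene by gene. With 3 sham arrays per muscle and cohort, a lack of calls does not show that the differences were equal. The moderated F test for unequal differences in the 4 cohorts called 0 genes (0%, limma, smallest adjusted p 0.079), and 950 genes had an unadjusted p under 0.05, where 5% of the genes is 1159.25. Of the genes that passed, 3273 of the 3520 higher and 5099 of the 5690 lower ones had the same sign in all 4 cohorts. These genes passed on the mean of the same 4 differences, so their shared sign is largely fixed by the call and is no test. The share of all genes with 1 sign in all 4 cohorts was not counted. In the tumour-bearing arrays, which entered the test through the pooled spread, 2133 of the 2152 genes past 1.5-fold had the same sign. Of the 2152, 176 were named as liver RNA, a choice that also used the tumour-bearing diaphragm arrays. Over all genes the sham and tumour-bearing differences correlated at r of 0.88, and the share of all genes with the same sign was not counted. In the tumour-bearing arrays Sln differed by 5.22, Myh7 by 5.75, Hoxc10 by -4.40, Idh2 by 1.61 and Mss51 by -4.46. Ighm differed by 0.05 there, against -1.95 in the sham arrays, and Myh2 by 2.35 against 0.95. These gaps between sham and tumour-bearing mice were not tested here.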

How the data were processed

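Total RNA was extracted with TRIzol and labelled with biotin for Affymetrix arrays, per the labels' protocols. The deposited table holds log2 signals that the authors made by RMA. Per the submitters' processing notes this used affy 1.36.1 and R 2.15.1. No source used here gives the probe set definitions. Of 25206 probe sets, 23185 carried a gene name and were tested. A model of 16 group means (muscle, treatment and cohort) was fitted to all 58 arrays with limma 3.58.1 in R 4.3.3 (42 residual degrees of freedom). The tumour-bearing arrays entered only through the pooled spread. The contrast was the equally weighted mean over 4 cohorts, two-sided, with Benjamini-Hochberg adjustment. No arrays held identical values, and array signals carry no read depth: the number of arrays limits the precision. The fit was tested on simulated data. Members and gene lists were chosen with earlier results of these data known. Genes named in the text are the 15 highest and 15 lowest differences among clearly expressed, named genes that passed with 1 sign in all cohorts and did not track Alb, up to 6 members of each list, a set of contractile genes, the Hox genes that passed, and up to 8 genes with the smallest p of the cohort F test. Further list members, among them Casq2, Myl3, Myom3, Ldha, Mstn, Msln, Cs, Col1a1 and Pax7, and the genes at the limit of r were added after their values were seen. These were not run singly under the alternatives. Alternatives covered samples, pairing, normalization, dim genes, variance model, fold size, liver RNA, and left-out arrays and cohorts.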

Additional observations from a re-analysis of the deposited data

Results flagged for a closer look

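Opposite signs of the muscle difference were sought only among the 286 genes chosen by the naming rule. Up to 8 of these were chosen for a small p of the cohort F test. In 4 of the 286, every diaphragm array lay above every tibialis anterior array in at least 1 cohort and below in another. With so few arrays per muscle and cohort, such separation can arise by chance. The share of all genes with this pattern was not counted, so the count of 4 cannot be judged against it. The test of unequal differences was limma's moderated F test, adjusted across all genes. Adra1b, an adrenergic receptor, differed by 1.12, 0.41, 0.90 and -0.28 in cohorts 1 to 4. Its F test in limma gave an unadjusted p-value of 0.116169 and an adjusted p of 1.0. Its signal moved with Alb over the 29 diaphragm arrays (r 0.73), and without the 6 arrays of high Alb the mean difference was 0.05 (limma adjusted p = 0.92) against 0.54 over all arrays. Cnn1, calponin of smooth muscle, differed by 1.33, 0.74, 1.56 and -0.21. Here limma gave an unadjusted p-value of 0.112168 and an adjusted p of 1.0. Cnn1 correlated with Alb at r of 0.52, and its mean difference of 0.85 was 0.30 without the 6 arrays (limma adjusted p = 0.55) and 0.23 with log2 Alb as a covariate (limma adjusted p = 0.61). Tmod2, a tropomodulin, differed by -0.32, -0.032, 0.012 and 0.95. For it limma gave an unadjusted p-value of 8.02348e-05 and an adjusted p of 0.372. Tet2, a DNA demethylation enzyme, differed by -0.081, 0.31, -0.46 and 0.34, where limma gave an unadjusted p-value of 0.000732052 and an adjusted p of 0.943. Of the 4 genes, Tmod2 and Tet2 had the smallest unadjusted p-values. For a gene chosen by its small p of the F test, that p is fixed by the choice and is no test. No gene passed the F test after adjustment over all genes.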

How the results depend on the processing

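The counts of 3520 higher and 5690 lower genes stayed within 1.5 times under most alternatives. With at least 1.5-fold required they were 1523 and 629. The count of lower genes moved to 3564 with a filter on dim genes, to 2847 with log2 Alb as a covariate, to 3736 without cohort 1 and, in an alternative added after seeing the data, to 2595 without the 6 diaphragm arrays of high Alb. Leaving out 1 array at a time gave 3283 to 3614 higher and 5071 to 6061 lower genes. The cohort F test called 1 gene (Coch) with the dim filter, 1 (Coch) with arrays centred on their median and 2 (Cym and Olfr814) without the arrays of high Alb, and 0 to 2 with 1 array left out. Of the alternatives that left out 1 array, 2 genes were called without diaphragm cohort 2 replicate 2 (Coch and Nedd1), 2 without tibialis anterior cohort 3 replicate 1 (Coch and 4930449E01Rik) and 1 without tibialis anterior cohort 1 replicate 1 (Coch). The number of genes that track Alb was 448 over the 12 sham arrays, 480 at r of 0.7 and 39 at r of 0.9. With log2 Alb as a covariate 4 named genes changed sign: Adra1b to -0.120, Serpina1c to -0.862, Fgg to -0.957 and Ahsg to -0.121; the cause was not tested. Centring moved the median of all genes from -0.085 to -0.104 and quantile normalization to -0.055.

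With sample number as a replicate block, 3834 genes were higher and 5943 lower, and 0 passed the F test. Deviations of the 12 equally numbered pairs correlated at -0.078 to 0.166, 2 of them over 0.1, and 7 of 12 tibialis anterior arrays correlated best with their own number, so the numbers were not taken as pairs.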
